A study of Mus musculus with 4 samples.

Results

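The genes described here encode the partners of Supt3 in the core of SAGA, a coactivator complex of RNA polymerase II. They are Supt7l, Supt20, Tada1, Taf5l, Taf6l, Taf9, Taf9b, Taf10, Taf12 and Trrap, 10 of the 54146 mouse genes in the deposited tables, chosen by symbol as structural subunits of the core other than Supt3. Nascent RNA was profiled in mouse embryonic stem (ES) cells kept with LIF and serum, by brief labelling with 4-thiouridine (TT-seq), so that a count reflects transcription under way. The KO group holds 2 libraries from cells labelled Supt3 KO, and the WT group 2 libraries from cells labelled Supt3 WT. The labels describe neither the mutant allele nor the strain, the number of clones or whether the libraries of a group are separate cultures, and the p-values below therefore cover library-to-library spread alone, part or all of which may be technical. Labelled RNA of fission yeast, S. pombe, was added to all libraries as a spike-in.

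SAGA joins an activator-binding subunit, an acetyltransferase module and a deubiquitinase module around a core. In structures of the yeast and human complexes the core is built from histone-fold proteins that stand together like a histone octamer. Supt3 fills its place with histone folds of its own, Taf10 pairs with Supt7l, Taf12 with Tada1, and Taf9 or its paralog Taf9b with Taf6l. Taf5l is a WD-repeat protein that sits beside this fold, Supt20 is a scaffold, and Trrap, a very large pseudokinase relative, binds activators such as Myc. Taf9, Taf10 and Taf12 also serve in the general transcription factor TFIID, where Taf5 and Taf6 stand in place of Taf5l and Taf6l. Trrap also serves in the TIP60 acetyltransferase complex.

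Libraries held 13.1 M and 18.4 M mouse counts in KO and 13.5 M and 19.4 M in WT (M, 1e6), with 3.46 M to 4.84 M S. pombe counts. Supt3 itself was transcribed in the libraries labelled KO, at 123 and 140 CPM against 147 and 158 CPM in WT libraries, with CPM meaning counts per 1e6 of the mouse total after TMM (trimmed mean of M-values) scaling. A count over a whole gene does not check the genotype. Of 8 ES cell markers 7 were tested, with summed levels of 1410 and 1650 CPM in KO and 2020 and 2050 CPM in WT. Nanog, Esrrb, Zfp42 and Sall4 had both KO libraries below both WT libraries, as did 26% of all genes. In Pou5f1, Dppa5a and Tdgf1 the groups overlapped. Of these 7, 1 was called lower by edgeR, Nanog (adjusted p = 0.0362), where 4.02% of all genes were. DESeq2 called both Nanog and Zfp42 lower (adjusted p = 0.0118 and 0.00514), where it called 3.57% of all genes lower. The marker not tested, Sox2, was listed at 0. All 7 primitive endoderm markers tested were called higher in KO, where 4.05% of all genes were. Their sums were 812 and 1170 CPM in KO and 399 and 487 CPM in WT. The sums of 7 feeder fibroblast markers were 7.63 and 6.11 CPM in KO and 6.81 and 5.69 CPM in WT. Of these markers 0 of 4 tested were called, where 8.07% of all genes were. An unadjusted p under 0.05 in edgeR was found for 3 of the 4, and for 22.9% of all genes. Their log2 fold changes, KO over WT, ran from -1.19 to 0.825, so that the sums hide shifts in both directions. The part of these marker shifts in the levels below was not tested. In bulk libraries a change in the mix of cells and a change per cell cannot be told apart.

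Taf9 was listed at 0 in all 4 libraries. Its gene (ENSMUSG00000052293) lies on the plus strand of chromosome 13 from 100651579 to 100656060 (mm10). It falls wholly inside Ak6, an adenylate kinase gene of the same strand that spans 100650979 to 100666359. A protein-coding gene in this position was listed at 0 in all libraries in 457 of 457 cases, 257 of which shared no annotated exon with the gene around them. Of 814 protein-coding genes that lay only inside a gene of the opposite strand, 597 had counts. Sox2, which lies inside Sox2ot, was in the same position as Taf9. The 0 therefore gives no level of Taf9, and 9 of the 10 genes could be measured. Ak6 had 353 and 458 counts in KO and 301 and 407 counts in WT.

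Taf9b, the paralog of Taf9, lies on the minus strand of the X chromosome from 106206883 to 106221158 and could be counted. The stretch of 90 coding bases in which the 2 genes are most alike is printed because it shows how far their coding sequences differ. Introns, untranslated regions and the mapping of reads were not compared. It is read from GENCODE M21 transcripts, from base 53 of the Taf9 coding sequence and base 185 of that of Taf9b, and capitals mark bases that differ.
Taf9: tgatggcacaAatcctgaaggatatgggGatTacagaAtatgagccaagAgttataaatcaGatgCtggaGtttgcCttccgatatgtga
Taf9b: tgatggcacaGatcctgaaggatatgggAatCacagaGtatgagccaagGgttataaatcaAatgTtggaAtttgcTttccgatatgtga
Even there 9 of 90 bases differed. Over 747 aligned coding bases 77.9% were identical, and the longest run of letters found in both coding sequences was 17 bases.

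The RefSeq table held promoter windows for 9 of the 10 genes, from 250 bases before the start to 50 after it (GRCm38.p6). The RefSeq starts used for Supt7l and Trrap lay 1045 and 1062 bases from their starts in the deposited table. The motifs searched on both strands were the TATA box TATAAA, the E-box CACGTG, the ETS motif CCGGAAG and the palindromic NRF1 motif, none of which overlap in the windows shown. None of the 9 windows held TATAAA, which was found in 13.6% of 32851 windows of the table, and 3 held CACGTG, which 7.15% of windows held. CCGGAAG was found in 2 of the 9, against 8.86% of all windows, and the NRF1 motif in none, against 0.971% of all windows. The median GC content was 65.3% in the 9 windows and 52.7% in all windows. Shown are the windows of Taf5l and Taf9b, the genes with the lowest ratios of KO to WT, and of Taf12, the window with the most matches, whose RefSeq starts are the starts in the deposited table. Capitals mark the matches, which are a description and not sites of binding. They lie at chr8:124021348-124021647 on the minus strand, chrX:106221109-106221408 on the minus strand and chr4:132274125-132274424 on the plus strand.
Taf5l: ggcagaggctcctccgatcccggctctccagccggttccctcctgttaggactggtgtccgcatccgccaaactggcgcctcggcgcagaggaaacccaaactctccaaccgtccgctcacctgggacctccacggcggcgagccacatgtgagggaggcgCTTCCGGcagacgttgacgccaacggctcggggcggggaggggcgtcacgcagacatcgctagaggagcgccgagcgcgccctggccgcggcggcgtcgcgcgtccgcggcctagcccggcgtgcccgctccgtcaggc
Taf9b: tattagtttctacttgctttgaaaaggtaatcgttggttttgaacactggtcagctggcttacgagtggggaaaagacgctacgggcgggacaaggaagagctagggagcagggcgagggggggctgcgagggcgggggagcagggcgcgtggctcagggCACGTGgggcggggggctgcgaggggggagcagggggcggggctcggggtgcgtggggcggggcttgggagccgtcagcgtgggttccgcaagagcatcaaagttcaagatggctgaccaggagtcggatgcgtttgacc
Taf12: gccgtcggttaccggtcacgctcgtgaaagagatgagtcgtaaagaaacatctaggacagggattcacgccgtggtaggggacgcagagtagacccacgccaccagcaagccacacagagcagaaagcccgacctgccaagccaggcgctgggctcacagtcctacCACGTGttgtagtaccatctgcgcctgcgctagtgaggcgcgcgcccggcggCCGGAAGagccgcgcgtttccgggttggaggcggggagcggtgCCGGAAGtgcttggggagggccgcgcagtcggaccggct
The window of Taf5l holds an ETS motif on the reverse strand, that of Taf9b an E-box, and that of Taf12 an E-box and 2 ETS motifs.

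The partners were transcribed at levels that differed widely per length, in a like order in both genotypes. Levels were set per kb of gene span not covered by another gene of the same strand. Taf5l (chromosome 8, 123996318 to 124021397) stood highest, at 6.25 ± 0.18 CPM per kb in KO and 7.37 ± 0.70 CPM per kb in WT (SD, n = 2 each, here and below). Supt20 (chromosome 3, 54692807 to 54728766) came next, at 4.57 ± 0.19 CPM per kb in KO and 4.04 ± 0.24 CPM per kb in WT. Taf10 (chromosome 7, 105739393 to 105744361) followed, at 2.76 ± 0.19 CPM per kb in KO and 2.59 ± 0.16 CPM per kb in WT. Supt7l, Trrap and Taf12 lay close together, at 1.49, 1.36 and 1.32 CPM per kb in KO and at 1.55, 1.5 and 1.26 CPM per kb in WT. Taf6l had 0.971 CPM per kb in KO and 0.892 CPM per kb in WT, and Tada1 had 0.674 and 0.710. Taf9b was lowest, at 0.198 ± 0.014 CPM per kb in KO and 0.296 ± 0.005 CPM per kb in WT. No 2 neighbours in this order overlapped between libraries of a genotype, yet with 2 libraries each this is a description. Per kb of exons the first, second and last places were the same in both genotypes, while Taf12 and Trrap stood above Taf10 in both.

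**Figure D1:**
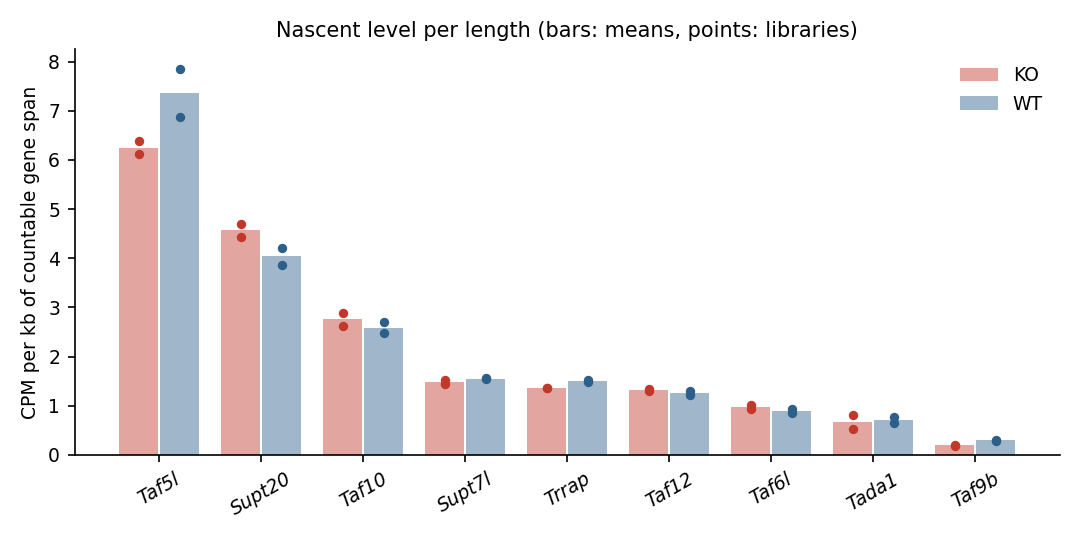
Nascent level of 9 core genes in CPM per kb of countable gene span, with KO in red left of WT in blue; bars are means and points the 2 libraries of each genotype. Taf5l stands highest and Taf9b lowest in both genotypes.

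The genes of proteins that pair through histone folds were not transcribed at equal levels per kb of gene span. The ratio of Supt7l to Taf10 was 0.530 and 0.549 in KO and 0.575 and 0.620 in WT. That of Tada1 to Taf12 was 0.392 and 0.631 in KO and 0.639 and 0.494 in WT. Taf6l exceeded Taf9b, by 4.85-fold and 4.97-fold in KO libraries and by 2.92-fold and 3.11-fold in WT libraries. The KO libraries lay above the WT libraries for this last pair and below them for the first, and the groups overlapped for Tada1 and Taf12. How often the ratio of any 2 genes separates the groups was not computed, and Taf9b rests on 40 to 82 counts per library. The other partner of Taf6l, Taf9, is missing from the ratio. The inequality of the first pair depended on the length used. Per kb of exons Supt7l had 2.82 CPM in KO and 2.93 CPM in WT, and Taf10 had 2.99 and 2.81. On that length Tada1 (2.38 and 2.51) stayed below Taf12 (7.02 and 6.67), and Taf6l (2.69 and 2.47) above Taf9b (0.895 and 1.34).

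None of the 9 measured partners was called between KO and WT, relative to the bulk of nascent transcripts. By edgeR's quasi-likelihood test with TMM scaling, 0 of 9 had an adjusted p under 0.05, where 8.07% of all 16789 tested genes did. DESeq2 and limma voom also called 0, where they called 7.34% and 8.06% of all genes, and 2 of 9 had an unadjusted p under 0.05 in edgeR, against 22.9% of all genes. Both, Taf5l and Taf9b, were on the lower side, where 11.3% of all genes lay, and 11.6% lay on the higher side. Over the 9 genes the median log2 fold change, KO over WT, was -0.05 and over all tested genes 0.01, with 5 of the 9 below 0 and 48.9% of all genes below 0. In 6 of 9 genes the KO libraries did not overlap the WT libraries, which was so for 52.7% of all genes: 4 were lower in KO (26.0% of all genes) and 2 higher (26.7% of all genes). The 95% interval of the log2 fold change lay wholly within 0.5 of 0 for 7 of 9, and for 39.2% of all genes.

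**Figure D2:**
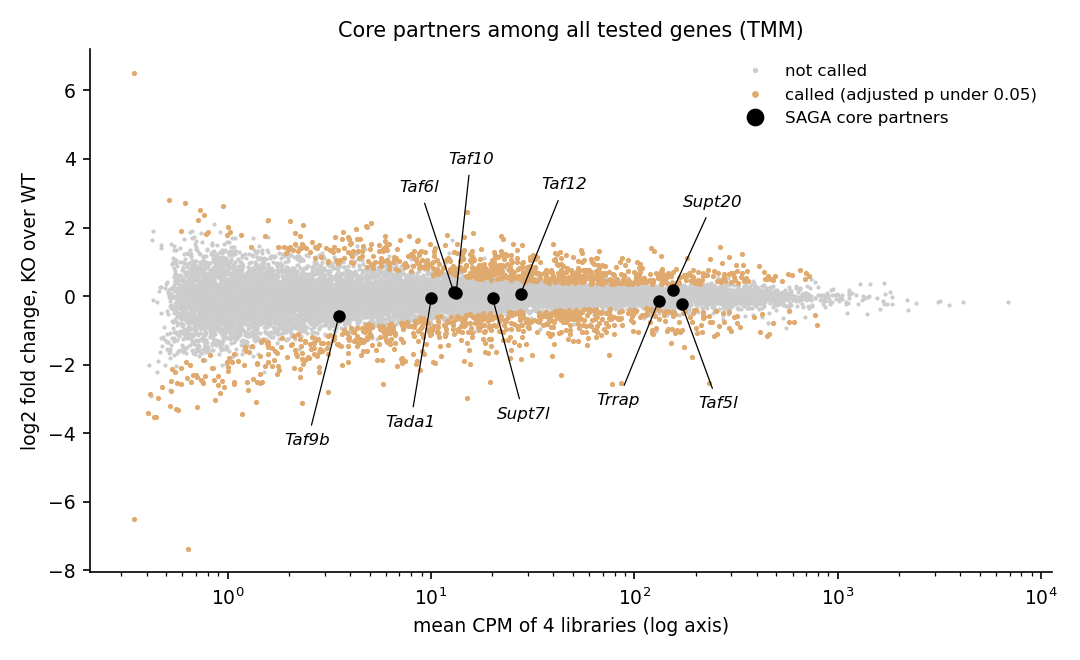
Log2 fold change of KO over WT against mean CPM (log axis) for all 16789 tested genes; black points are the 9 measured core partners and orange points the 1355 genes called at an adjusted p under 0.05. The black points lie between -0.59 and 0.18 and none is called.

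Among the subunits that belong to SAGA and not to TFIID, Taf5l and Supt20 were the most abundant and differed most from WT in opposite directions. Taf5l stood at 153 and 160 CPM in KO libraries, against 172 and 197 CPM in WT libraries. Both KO libraries were below both WT libraries. The log2 fold change of Taf5l was -0.24 ± 0.10 (SE; 95% interval -0.47 to -0.01), a fold of 0.848, and edgeR's adjusted p was 0.199. Leaving out a library gave -0.34 (WT replicate 1) to -0.135 (WT replicate 2), with no call. The antisense-strand gene Gm20388, which spans the Taf5l locus, had 150 and 148 CPM in KO and 162 and 168 CPM in WT (log2 fold change -0.15, edgeR adjusted p = 0.376). Taf5l lies wholly inside this gene and had counts, as did 597 of the 814 genes inside a gene of the opposite strand only, against 0 of 457 inside a gene of the same strand, so that the values behave as counts taken by strand. Supt7l, Supt20, Tada1 and Taf10 also meet a gene of the opposite strand. Supt20 stood at 169 and 160 CPM in KO, against 139 and 151 CPM in WT, so that its KO libraries were above its WT libraries. Its log2 fold change was 0.18 ± 0.09 (95% interval -0.04 to 0.39, edgeR adjusted p = 0.304). Leaving out a library gave 0.11 (WT replicate 1) to 0.24 (WT replicate 2), again with no call.

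The histone-fold genes Supt7l, Tada1 and Taf6l were less abundant. Supt7l (chromosome 5, 31514564 to 31527807) had 20.3 and 19.1 CPM in KO and 20.6 and 20.4 CPM in WT. The KO values lay just below the WT values, with a log2 fold change of -0.06 ± 0.12 (95% interval -0.34 to 0.22, edgeR adjusted p = 0.828). Taf6l (chromosome 19, 8772522 to 8786417) had 189 and 232 counts in KO and 162 and 248 counts in WT, or 13.5 ± 0.71 CPM in KO and 12.4 ± 0.77 CPM in WT. In CPM its KO libraries were above its WT libraries by a small margin, and its log2 fold change was 0.12 ± 0.15 (95% interval -0.21 to 0.45, edgeR adjusted p = 0.697). Tada1 (chromosome 1, 166379097 to 166393621) varied most between libraries of a genotype, with 7.70 and 11.9 CPM in KO and 11.3 and 9.34 CPM in WT. These groups overlapped. The gap between the KO libraries of Tada1, 0.63 on the log2 scale, was larger than its log2 fold change of -0.05 ± 0.22 (95% interval -0.56 to 0.45, edgeR adjusted p = 0.921). That value was 0.21 without KO replicate 1 and -0.41 without KO replicate 2.

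**Figure D3:**
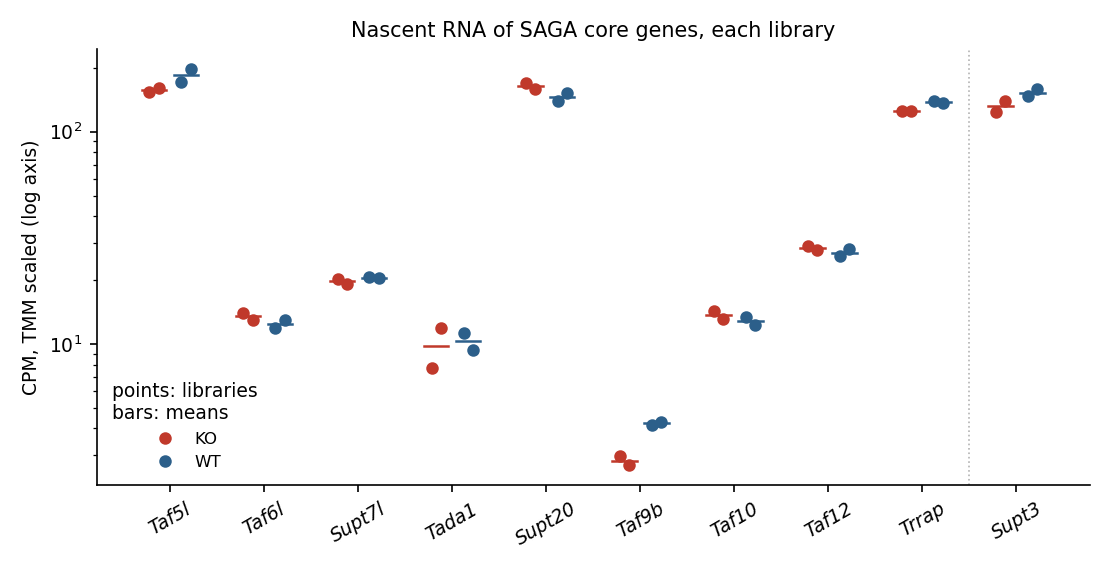
CPM (TMM scaled, log axis) of the 9 measured core partners and Supt3 in each library, KO in red left of WT in blue; short bars are means of 2 libraries. Taf9b, Taf5l, Trrap, Supt7l and Supt3 have both KO libraries below both WT libraries, and the KO libraries of Tada1 lie far apart, at 7.70 and 11.9 CPM.

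Among the subunits that SAGA shares with TFIID, Taf9b had the largest ratio between the genotypes of all 9 partners and also the lowest counts. It had 40 and 48 counts in KO libraries, against 57 and 82 counts in WT libraries. On the CPM scale these were 2.96 and 2.69 in KO and 4.17 and 4.28 in WT, so that both KO libraries were below both WT libraries. The log2 fold change was -0.59 ± 0.24 (95% interval -1.12 to -0.05, edgeR adjusted p = 0.178), and 9.84% of all tested genes had a value as low or lower. The fits that left out a library gave -0.65 to -0.51. Taf10 had 14.4 and 13.1 CPM in KO and 13.5 and 12.3 CPM in WT. Taf12 (chromosome 4, 132274375 to 132295766) had 29.0 and 27.7 CPM in KO and 26.0 and 27.9 CPM in WT. In both genes the groups overlapped, with log2 fold changes of 0.09 ± 0.15 for Taf10 and 0.07 ± 0.11 for Taf12 (edgeR adjusted p = 0.777 and 0.765). Their 95% intervals ran from -0.24 to 0.42 and from -0.18 to 0.32.

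Trrap, the activator-binding subunit on chromosome 5 (144767732 to 144859778), had 125 and 125 CPM in KO, against 140 and 137 CPM in WT. The libraries of each genotype lay close together and the KO pair was below the WT pair. The log2 fold change was -0.15 ± 0.09 (95% interval -0.34 to 0.05, edgeR adjusted p = 0.349). Trrap stayed between -0.16 and -0.14 in the fits that left out a library.

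The libraries fall into a pair with fewer and a pair with more counted reads, each with a KO and a WT library, and values were also taken within each pair. These pairs were defined from the data and are not given by the labels. Differences of log2 CPM, KO minus WT, had the same sign in both pairs for 7 of 9 genes. The share of all genes with the same sign was not computed. It is at least 52.7%, the share whose KO and WT libraries did not overlap. The differences were negative in both pairs for Taf5l, Taf9b, Trrap and Supt7l. Taf5l had -0.17 in the pair of fewer and -0.30 in the pair of more reads, and Taf9b had -0.49 and -0.67. Supt20 was positive in both, at 0.28 and 0.08. Tada1 had -0.55 in the pair of fewer reads and 0.35 in that of more reads. With a term for the pairs, edgeR called Taf5l (log2 fold change -0.24, adjusted p = 0.00492) and Supt20 (0.18, adjusted p = 0.0498), which is 2 of 9, where that fit called 25.7% of all genes. Taf9b missed the threshold in that fit (adjusted p = 0.0511). The fit has 1 residual degree of freedom and a term chosen from the same data, so that its calls are weak evidence.

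**Figure D4:**
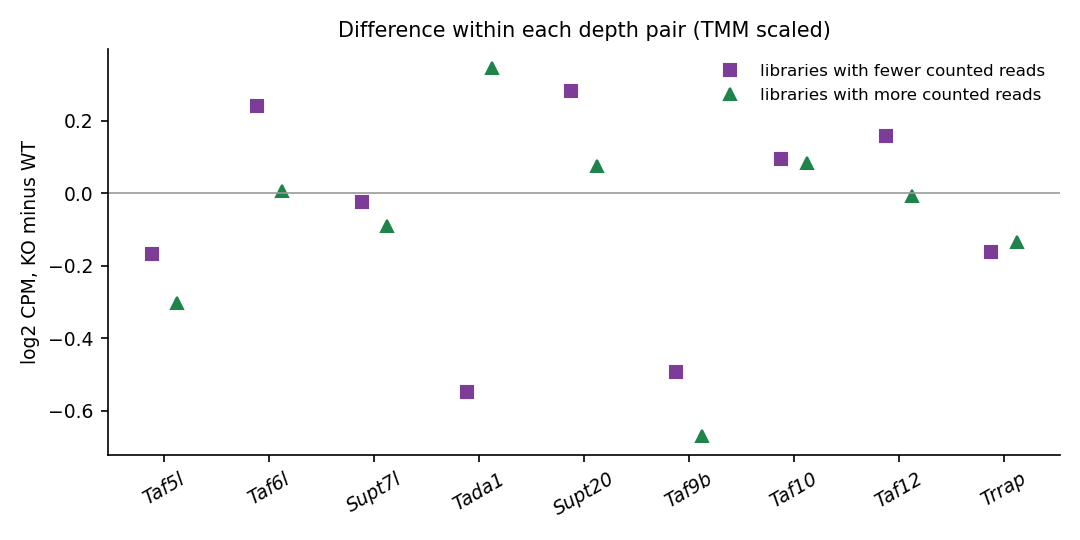
Difference in log2 CPM, KO minus WT, for 9 core partners in the lower-depth pair of libraries (squares) and the higher-depth pair (triangles). Taf9b is lowest among the triangles, at -0.67, and Tada1 and Taf12 change sign between the pairs.

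The spike-in asks about transcription per added S. pombe RNA. It moved the median of all tested genes to a log2 fold change of -0.23, and all 9 partners were below 0 on this scale, with a median of -0.20, as were 79.0% of all genes. Relative to that shift, Taf9b (-0.84) and Taf5l (-0.49) lay lower, and Supt20 (-0.09) and Taf6l (-0.14) higher. None of the 9 was called by edgeR (0 of 9, where 0.101% of all genes were, and 0 at an unadjusted p under 0.05) or by DESeq2 (0.0774% of all genes). When a library was left out, the direction varied with the library. The partners' median was 0.12 without KO replicate 1 and 0.10 without WT replicate 2, where that of all genes was 0.09 and 0.18. It was -0.68 without KO replicate 2 and -0.545 without WT replicate 1, where that of all genes was -0.66 and -0.547. Each such fit leaves the depth pairs unbalanced. Mouse counts per S. pombe count were 2.71 in KO and 3.25 in WT in the pair of fewer reads. In the pair of more reads they were 4.86 and 5.6. The log2 ratio of these values, KO over WT, was -0.265 and -0.207, so that KO was lower in both pairs. Taf5l had 426 and 755 counts per 1e6 S. pombe counts, scaled by their TMM factors, in KO, against 570 and 1090 in WT. The gap between libraries of a genotype was wider than the difference between genotypes, and the 95% interval of Taf5l ran from -2.01 to 1.03 on the log2 scale. The term for depth pairs, with the same weakness as above, gave 4 calls among the partners, all lower, where it called 37.7% of all genes lower. In the authors' deposited table, whose log2 fold changes are shrunken, Taf9b stood at -0.54, Taf5l at -0.35 and Supt20 at -0.06. The median over all genes there was -0.09. The authors' DESeq2 adjusted p of every measured partner was 0.999, in a table that called 8 of 29514 tested genes.

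**Figure D5:**
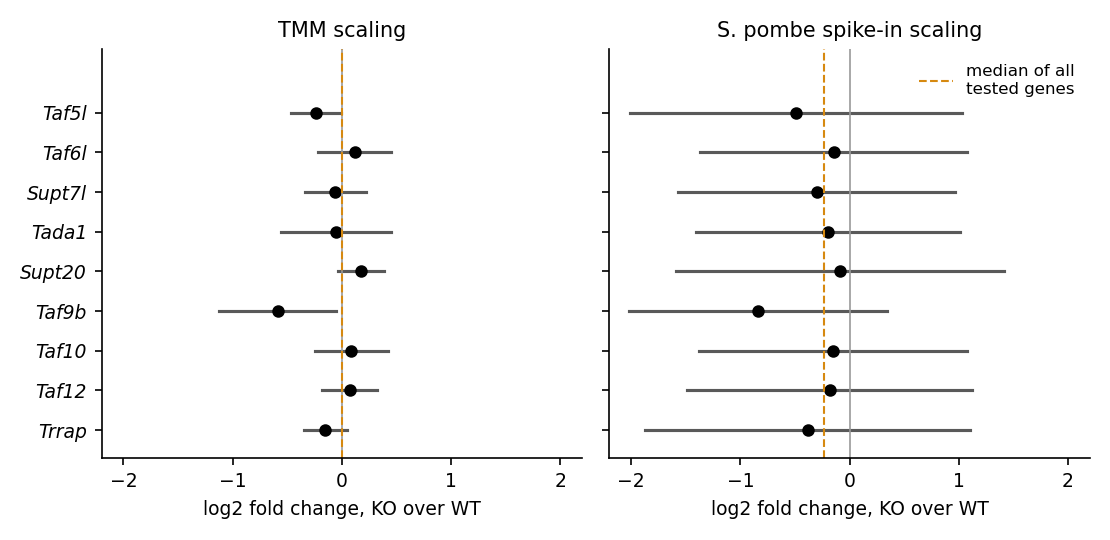
Log2 fold change of KO over WT with 95% intervals for 9 core partners, with TMM scaling on the left and S. pombe spike-in scaling on the right; the dashed line is the median of all tested genes. Intervals are wider with the spike-in, where that of Taf5l runs from -2.01 to 1.03.

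The share of reads between SAGA subunits and their TFIID counterparts does not depend on scaling. Of the counts of Taf5l and Taf5 together, Taf5l took 89.2% and 88.6% in KO and 89.5% and 90.4% in WT. Both KO shares were below both WT shares, by 1.04 percentage points on average (exact two-sided permutation test, p = 0.333, the smallest p this design allows). The difference of KO minus WT was -0.31 in the pair of fewer reads and -1.77 in that of more reads. Of the counts of Taf6l and Taf6, Taf6l took 51.1% and 58.6% in KO and 51.1% and 56.1% in WT, and the groups overlapped (exact permutation test, p = 1). The pair of Taf9b and Taf9 gives no share. These shares are of counts and are not set per length. Per kb of gene span Taf6l stood below Taf6, at 0.971 against 1.28 CPM in KO and 0.892 against 1.21 CPM in WT. Taf5l stood above Taf5 on that scale, at 6.25 against 1.24 CPM in KO and 7.37 against 1.31 CPM in WT.

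The other genes of SAGA and the complexes that share its core subunits held no call either in the edgeR fit with TMM scaling. That fit called 8.07% of all genes, and 22.9% had an unadjusted p under 0.05. In the acetyltransferase module 0 of 5 genes were called, with 1 at an unadjusted p under 0.05. There the acetyltransferase gene Kat2b had the largest log2 fold change, -0.40 (edgeR adjusted p = 0.0702). The deubiquitinase module had 0 calls among 6 genes and 0 unadjusted p under 0.05, and Usp22, the ubiquitin protease, had 0.19. For the splicing factors Sf3b3 and Sf3b5 of SAGA there were 0 calls and 0 unadjusted p under 0.05, and Sf3b5 had 0.07. Of 12 TFIID genes outside the core list 0 were called, with 1 at an unadjusted p under 0.05, and Taf7 had the largest value, 0.37 (edgeR adjusted p = 0.103). Taf13, a histone-fold relative of Supt3, had 0.33 (edgeR adjusted p = 0.281). The 17 genes of the TIP60 complex gave 0 calls and 0 unadjusted p under 0.05, and Ing3 had -0.19. DESeq2 called 0 in each of these lists. Without a filter on low counts edgeR called Kat2b and Taf7 (adjusted p = 0.0125 and 0.0337), in a fit that called 8.34% of 29514 genes. With mouse totals in place of TMM factors it called Kat2b (adjusted p = 0.0351), where 7.09% of all genes were called. Median log2 fold changes ran from -0.05 in TFIID to 0.03 in the splicing factors. Without KO replicate 2 the test called Kat2b, Taf3, Taf7, Taf13 and Supt3, with adjusted p from 0.000136 to 0.0467, where it called 16.4% of all genes, and still 0 core partners.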

How the data were processed

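Raw gene counts of both species were deposited by the authors, with a comparison table that repeats the mouse counts and adds normalized signal values (counts divided by a size factor), shrunken log2 fold changes and p-values. Per the submitters' processing notes the tools were DESeq2 1.16.1, HTSeq 0.6.1p1, STAR 2.5.3, cutadapt 1.10 and bcl2fastq 2.20.0.422, named without an order, and the build was mm10. The sources used here do not say which feature was counted, nor the strand setting and annotation. Gene positions are those of the deposited table, and exons come from GENCODE M21.

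Genes were kept by filterByExpr (minimum count 10), which left 16789. They were tested in R 4.3.3 with edgeR 4.0.16 (quasi-likelihood), scaled by TMM factors or by S. pombe library sizes with TMM factors of their own, with Benjamini-Hochberg adjustment over all tested genes and a threshold of 0.05. DESeq2 1.42.0, limma 3.58.1 (voom), other filters and scalings, a depth term and each library left out were alternatives. The SE is the log2 fold change over the square root of F, and intervals are 95%. The biological coefficient of variation was 0.0952 with TMM and 0.363 with the spike-in. Replicates were numbered in accession order. They differed by a chi-square per degree of freedom of 9.62 in KO and 5.55 in WT, so no library was a duplicate. The fits were also run on simulated data with the same dispersion for every gene and no effect of depth pairs. Those runs do not show the error rates on these data. The members, the lists and the depth pairs were chosen with earlier results of these data known. Named were all members, Supt3, the paralogs Taf5 and Taf6, called genes and the largest change of each list, and genes that overlap a member. All ES cell markers were named as well. Taf13 and Taf3 were named after their values were seen.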

Additional observations from a re-analysis of the deposited data

How the results depend on the processing

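The labels give no replicate numbers that pair libraries across genotypes, so the paired fit used depth pairs defined from the data. With TMM scaling, 0 core partners were called under all other scalings, tests and filters tried and with each library left out (0 to 0), except that the depth term gave 2. Leaving out a library moved the share of all genes called from 8.07% with all libraries to as low as 4.78% (WT replicate 2 left out) and as high as 16.4% (KO replicate 2 left out). In the spike-in fits the depth term gave 4 and all others 0. The median log2 fold change was -0.0531 with TMM and -0.0669 to 0.0215 with a library left out. With the spike-in it was -0.202, and -0.679 to 0.123 with a library left out. With the spike-in Supt20 (-0.0855), Taf6l (-0.145), Taf10 (-0.150) and Taf12 (-0.184) turned negative, along with the median of all genes. Tada1 ranged from -0.41 to 0.21 with a library left out. The depth term gave 1 call each for Supt3, the acetyltransferase and the deubiquitinase module and 3 for TFIID, against 0 without it. With that term 25.7% of all genes were called, against 8.07% without it. Leaving out a library gave 0 to 1, 0 to 1, 0 to 0 and 0 to 3 calls for these, and 0 to 0 for the splicing factors and TIP60. The cause of these differences was not tested. The Taf5l share differed by -1.49 to -0.59 percentage points with a library left out, and by -0.31 and -1.77 within the depth pairs, and that of Taf6l by -2.53 to 4.98. Taf9b rests on 40 to 82 counts per library, which limits its precision. With 2 libraries per genotype no exact test can go below 0.333.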

Other observations

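Genes that overlap a core partner or Supt3 on the opposite strand were measured as well. None was called by edgeR (0 of 6 tested, where 8.07% of all genes were called). An unadjusted p under 0.05 was found for 2 of the 6, and for 22.9% of all genes. Ilk, which encodes integrin-linked kinase and overlaps the end of Taf10, had 15.5 and 14.0 CPM in KO and 12.4 and 9.55 CPM in WT, with a log2 fold change of 0.43 ± 0.17 (edgeR adjusted p = 0.168). Runx2, the bone transcription factor gene that overlaps the start of Supt3, was low in both genotypes. It had 5.70 and 6.05 CPM in KO and 3.95 and 3.97 CPM in WT (0.57 ± 0.21, edgeR adjusted p = 0.139). Both KO libraries were above both WT libraries in these 2 genes, which was so for 26.7% of all genes. Exosc8, a gene of the RNA exosome that meets the end of Supt20, had 27.7 and 30.4 CPM in KO and 32.5 and 32.8 CPM in WT (-0.17, edgeR adjusted p = 0.416). Slc4a1ap, which overlaps the start of Supt7l, had 0.03 and Pogk, which overlaps Tada1, had 0.22 as log2 fold change. On the same strand, Ak6 had 26.1 and 25.6 CPM in KO and 22.0 and 21.2 CPM in WT (0.26 ± 0.11, 95% interval 0.0013 to 0.52, edgeR adjusted p = 0.217). The value of Ak6 says nothing of the reads of Taf9 inside it.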
